A study of Mus musculus with 10 samples.

Results

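Genes of neurotrophin, fibroblast growth factor (FGF) and vascular endothelial growth factor (VEGF) signalling were followed in the dentate gyrus of mice from 4 to 12 weeks of age. The 10 genes chosen were Bdnf, Ntf3, Ntrk2, Ntrk3, Ngfr, Fgf1, Fgf2, Fgfr1, Fgfr2 and Vegfa, and each was represented by the probe set whose platform annotation named that gene alone. Such a probe set was found for 9 of them, exactly 1 per gene, among 19752 genes measured. Ntf3 was not analysed here. The tissue came from untreated mice of a strain written C56BL/6J, and each of the 5 ages (4, 6, 8, 10 and 12 weeks) had 2 arrays. Both gyri were cut free with a needle tip and dissociated, so the RNA is that of the whole tissue, and fewer cells of a type and less RNA per cell cannot be told apart.

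Neurotrophins are secreted proteins that bind Trk receptor tyrosine kinases with high affinity and the p75 receptor with lower affinity. FGFs bind their receptor tyrosine kinases together with heparan sulphate, and VEGF-A binds receptors on endothelial cells. In the dentate gyrus, where granule neurons are still born after birth, all of these pathways are known for effects on precursor division, neuronal survival and dendrite growth, and they share the Ras and ERK kinase cascade.

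Levels are the deposited values, taken as log2 units, and they are not compared between genes because probe sets differ in brightness. The array of 6 weeks replicate 1 carried a level of 13.77 for Ttr, a transcript abundant in choroid plexus, against a highest value of 10.15 on any other array, and 8 weeks replicate 1 was the array least correlated with the rest (mean r = 0.9952). The labels give the sex as female, yet Xist lay between 5.41 and 6.02 on the 10 arrays below the dim reference defined next, while Uty, Kdm5d and Eif2s3y, all Y-linked, lay between 8.59 and 9.34, which goes against that label. All 10 listed markers of mature granule cells, the defining neurons of this tissue, lay above the dim reference. The dim reference is the 95th percentile of odorant, pheromone and trace amine receptor genes (7.01). Of all 19752 genes 14393 exceeded it, as did all 9 listed pyramidal cell markers, so this position is not particular to granule cells. Every one of the 9 signalling genes exceeded that reference on every array.

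None of the 9 genes passed the test for a linear change over age, for a difference among any ages, or between 12 and 4 weeks (limma, Benjamini-Hochberg adjustment over all genes, threshold 0.05). Over all genes 0.820% passed the linear test (0.147% higher and 0.673% lower with age), 0.167% the test among any ages and 0.516% the comparison of 12 with 4 weeks. Fitted changes over the 8 weeks, in log2 units, ran from −0.21 for Fgfr1 to 0.16 for Fgf2. Of the 9 genes 4 lay above 0 and 5 below, beside 48.8% of all genes below 0. The median of the 9 was −0.03 against 0.00 for all genes, and the median size was 0.11 against 0.07. At an unadjusted p under 0.05 the linear test held 2 of the 9, Fgfr1 and Fgf2, beside 11.7% of all genes. The test among any ages held 1, Fgfr1, beside 8.46%, and the comparison of 12 with 4 weeks held 0, beside 9.57%.

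The 95% intervals of the fitted change, not adjusted for the number of genes, reached farthest from 0 for Fgfr1, at −0.37, which is a 1.29-fold difference. The smallest fitted change that passed for any gene in the series was 0.25, and the median among genes that passed was 0.45.

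**Figure D1:**
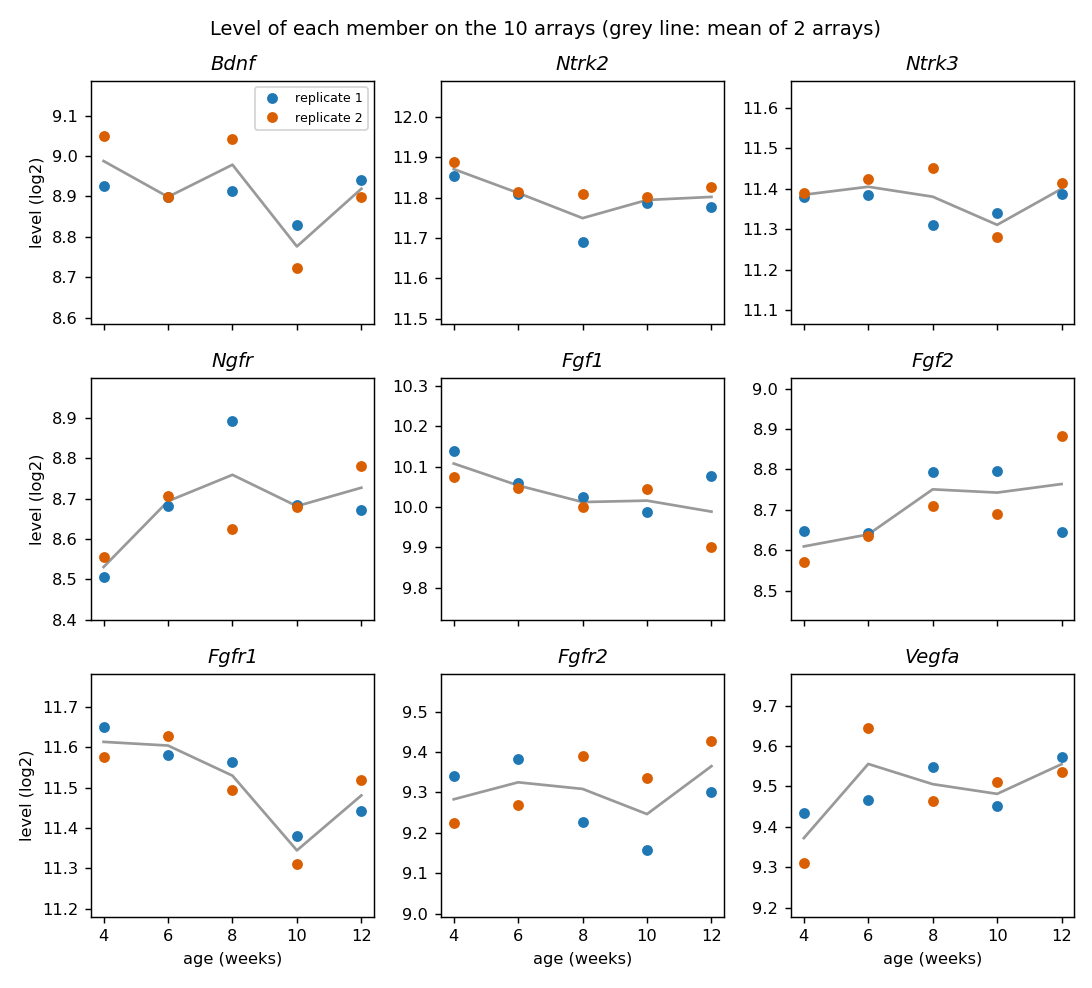
Levels (log2) of the 9 signalling genes on each array against age in weeks, with the same axis height in every panel; points are single arrays, coloured by replicate number, and the grey line joins the means of 2 arrays. The 10-week points of Bdnf and Fgfr1 lie under all other points of those genes, and the 4-week points of Ngfr and Vegfa lie under all others of theirs.

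Bdnf encodes brain-derived neurotrophic factor, the ligand of TrkB, which granule cells make in response to synaptic activity. The gene lies on chromosome 2 (109674700 to 109727043, mm10), has several alternative first exons joined to a single coding exon, and is read here by a single probe set. Which exons its probes cover was not analysed here. RefSeq (GRCm38.p6) lists 7 start windows for Bdnf. Within the 250 bases before the start, a single window of these holds TCACGTCA or its reverse complement. That motif is a variant of the cAMP response element through which activity-regulated factors can act. The window is shown because the activity-induced genes described further on are the textbook companions of this start. The stretch covers chr2:109692186-109692435 on the plus strand, the 250 bases before the start, with the match in capitals 38 bases before it.
Bdnf: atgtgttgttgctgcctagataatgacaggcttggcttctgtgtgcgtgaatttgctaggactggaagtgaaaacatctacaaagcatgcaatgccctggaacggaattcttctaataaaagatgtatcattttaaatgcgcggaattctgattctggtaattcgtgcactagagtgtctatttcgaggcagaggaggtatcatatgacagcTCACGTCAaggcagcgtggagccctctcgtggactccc
Among 32851 RefSeq start windows, 0.350% hold that motif on either strand within the 250 bases before the start, the only part searched. The match is a description of the sequence and was not measured for binding.

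Bdnf levels were 8.93 and 9.05 at 4 weeks, 8.90 on both arrays at 6 weeks, 8.91 and 9.04 at 8 weeks, 8.83 and 8.72 at 10 weeks, and 8.94 and 8.90 at 12 weeks. The 10-week arrays are the lowest, and all other arrays lie between 8.90 and 9.05. In order of their means the ages ran 4, 8, 12, 6 and 10 weeks, and neighbours in that order differed by less than the largest SD within an age (0.09) except for the last step, from 8.90 ± 0.00 to 8.78 ± 0.08 (SD, n = 2). Its linear change was −0.10 ± 0.08 (SE, adjusted p = 0.70). Leaving out replicate 2 of 4 weeks gave −0.055, and leaving out replicate 2 of 10 weeks gave −0.065. The arrays up to 10 weeks alone gave −0.22. Here and below, slopes without the 12-week arrays are scaled to 8 weeks, a longer span than those arrays cover.

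Ntrk2 encodes TrkB, the receptor of BDNF, which is made in a kinase form and in truncated forms known from astrocytes. Which of these the probe set reads was not analysed here. Its levels were 11.85 and 11.89 at 4 weeks, 11.81 on both arrays at 6 weeks, 11.69 and 11.81 at 8 weeks, 11.79 and 11.80 at 10 weeks, and 11.78 and 11.83 at 12 weeks. The 4-week arrays are the highest, by 0.03 over the nearest other array, a position that 4.11% of all genes share. Its linear change was −0.06 ± 0.06 (adjusted p = 0.76), or −0.033 without 4 weeks replicate 2. The arrays up to 10 weeks alone gave −0.12 when scaled to 8 weeks.

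Ntrk3 encodes TrkC, the receptor of neurotrophin 3. Levels were 11.38 and 11.39 at 4 weeks, 11.38 and 11.42 at 6 weeks, 11.31 and 11.45 at 8 weeks, 11.34 and 11.28 at 10 weeks, and 11.39 and 11.41 at 12 weeks. The spread between the 8-week arrays (SD 0.10) exceeds the whole difference among the other 4 age means. Its fitted change, −0.03 ± 0.06 (adjusted p = 0.93), was the smallest of the 9, with a 95% interval from −0.16 to 0.11. With single arrays left out it ran from −0.055 (without 12 weeks replicate 2) to −0.0052 (without 10 weeks replicate 2). It was −0.099, scaled to 8 weeks, without the 12-week arrays.

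Ngfr encodes p75, which binds all neurotrophins and their precursor forms. Levels were 8.51 and 8.55 at 4 weeks, 8.68 and 8.71 at 6 weeks, 8.89 and 8.63 at 8 weeks, 8.68 on both arrays at 10 weeks, and 8.67 and 8.78 at 12 weeks. The 4-week arrays are the lowest, by 0.07, while every later array lies within the span of the 8-week pair. Both 4-week arrays were the lowest of all 10 for 4.18% of genes. The linear change was 0.15 ± 0.08 (adjusted p = 0.54), or 0.097 without 4 weeks replicate 1, and 12 weeks exceeded 4 weeks by 0.20 ± 0.09 (adjusted p = 0.54). The highest value belongs to 8 weeks replicate 1, the array least correlated with the rest.

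Fgf2, basic FGF, is a ligand without a classical signal peptide that astrocytes are known to supply to neural precursors. Its levels were 8.65 and 8.57 at 4 weeks, 8.64 on both arrays at 6 weeks, 8.79 and 8.71 at 8 weeks, 8.80 and 8.69 at 10 weeks, and 8.65 and 8.88 at 12 weeks. The 8- and 10-week arrays all lie above the 4- and 6-week arrays, an order whose share among all genes was not counted. Of the 12-week pair replicate 1 lies among the young arrays and replicate 2 is the highest of all. Over age the change was 0.16 ± 0.07 (unadjusted p = 0.041, adjusted p = 0.40). It was 0.24 without 12 weeks replicate 1 and 0.11 without 12 weeks replicate 2, with adjusted p = 0.21 and 0.69.

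Fgf1, acidic FGF, is a ligand able to bind all FGF receptors and is known from neurons. Its levels were 10.14 and 10.08 at 4 weeks, 10.06 and 10.05 at 6 weeks, 10.02 and 10.00 at 8 weeks, 9.99 and 10.04 at 10 weeks, and 10.08 and 9.90 at 12 weeks. The means stood lower at each age up to 8 weeks, and the 12-week arrays again lie far apart (SD 0.12). The fitted change over age was −0.11 ± 0.06 (adjusted p = 0.52). It was −0.065 without 12 weeks replicate 2 and −0.17 without 12 weeks replicate 1. On 12 weeks replicate 2 Fgf1 had its lowest value of the series and Fgf2 its highest.

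Fgfr1 encodes a receptor of both ligands that is expressed by neurons and by precursor cells of the dentate gyrus. The gene lies on chromosome 8 (25518759 to 25575718). Levels were 11.65 and 11.58 at 4 weeks, 11.58 and 11.63 at 6 weeks, 11.56 and 11.49 at 8 weeks, 11.38 and 11.31 at 10 weeks, and 11.44 and 11.52 at 12 weeks. The 4- and 6-week arrays overlap and lie above all later ones, a split whose share among all genes was not counted. The 10-week arrays lie below all others, with 12 weeks between 8 and 10 weeks in the order of means. The fitted change of −0.21 ± 0.07 had the smallest p of the 9 (unadjusted p = 0.016, adjusted p = 0.26). Without the 12-week arrays it was −0.35 when scaled to 8 weeks (adjusted p = 0.19), a longer span than those arrays cover. On all arrays, a fitted change larger in size than −0.21 was found for 8.94% of all genes.

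Fgfr2 encodes a receptor known from astrocytes and the oligodendrocyte lineage. Its levels were 9.34 and 9.22 at 4 weeks, 9.38 and 9.27 at 6 weeks, 9.23 and 9.39 at 8 weeks, 9.16 and 9.34 at 10 weeks, and 9.30 and 9.43 at 12 weeks. Every age overlaps every other age, and the mean SD within an age (0.10) is larger than the SD over all 10 arrays (0.09). The linear change was 0.03 ± 0.08 (adjusted p = 0.93), and its sign turned in 3 of 19 alternative fits.

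Vegfa encodes VEGF-A, a ligand that acts on blood vessels and is induced by low oxygen. The gene lies on chromosome 17 (46016993 to 46032377). Its 250 bases before the more upstream of 2 RefSeq starts, chr17:46032378-46032627 on the minus strand (GRCm38.p6), are shown because hypoxia-induced genes are set beside Vegfa further on. Capitals mark GC boxes (GGGCGG, searched on both strands), which begin 72 and 62 bases before the start.
Vegfa: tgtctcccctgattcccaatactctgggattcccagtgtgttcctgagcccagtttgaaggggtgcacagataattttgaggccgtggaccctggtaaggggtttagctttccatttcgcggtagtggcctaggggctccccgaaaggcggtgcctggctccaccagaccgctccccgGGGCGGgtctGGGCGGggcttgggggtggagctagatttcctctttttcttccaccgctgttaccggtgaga
Within the 250 bases before the start, a GC box is present in 32.7% of all windows. The hypoxia response core ACGTG or its reverse complement is present there in 16.6%. The core is not among the 250 bases shown, and it does occur in those of the other Vegfa window. Nothing about factor binding follows from either match.

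Vegfa levels were 9.43 and 9.31 at 4 weeks, 9.47 and 9.65 at 6 weeks, 9.55 and 9.46 at 8 weeks, 9.45 and 9.51 at 10 weeks, and 9.57 and 9.54 at 12 weeks. The 4-week arrays are the lowest by a margin of 0.02, and the later arrays lie between 9.45 and 9.65. The difference of 6 from 4 weeks was 0.18 ± 0.08 (SE, unadjusted p = 0.051), and that of 12 from 4 weeks was 0.18 ± 0.08 (adjusted p = 0.53). The linear change was 0.12 ± 0.08 (adjusted p = 0.63), and it was 0.04 without 4 weeks replicate 2, the array of lowest Vegfa.

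**Figure D2:**
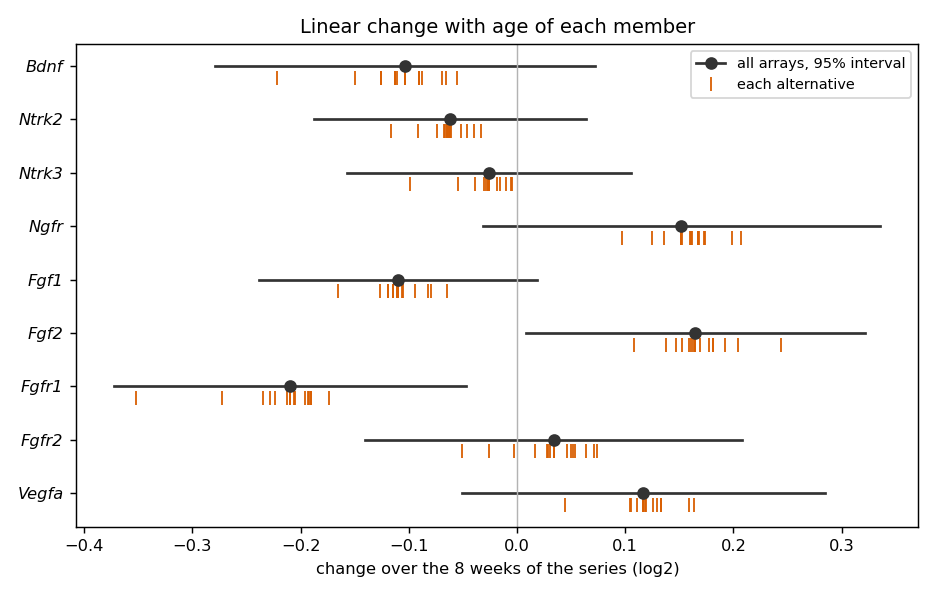
Fitted linear change over the 8 weeks of the series (log2, horizontal axis) for each of the 9 genes; the dot and bar are the estimate on all arrays with its 95% interval, and each tick is the estimate in an alternative fit. The bars of Fgfr1 and Fgf2 alone leave out 0, before adjustment for the number of genes, and only the ticks of Fgfr2 fall on both sides of 0.

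Related genes were compared within each array by the slope over age of their difference, with an exact permutation test over the 113400 distinct assignments of arrays to ages (two-sided, adjusted over the 3 pairs that could be formed). The fitted change of Fgf1 lay 0.28 below that of Fgf2 on the log2 scale, a difference of −0.28 (exact p = 0.032, adjusted p = 0.048). Centred on its mean, the Fgf1 minus Fgf2 difference stood at 0.16 and 0.17 at 4 weeks, 0.08 on both arrays at 6 weeks, −0.10 and −0.04 at 8 weeks, −0.14 and 0.02 at 10 weeks, and 0.10 and −0.32 at 12 weeks. Arrays of 4 and 6 weeks lie above those of 8 and 10 weeks. Of the 12-week arrays replicate 1 lies between the 6- and 4-week arrays and replicate 2 is the lowest of all.

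For the receptors, the change of Fgfr1 minus that of Fgfr2 was −0.24 (exact p = 0.029, adjusted p = 0.048). Centred differences were 0.10 and 0.14 at 4 weeks, −0.01 and 0.15 at 6 weeks, 0.13 and −0.10 at 8 weeks, 0.01 and −0.23 at 10 weeks, and −0.07 and −0.12 at 12 weeks. Both 4-week arrays exceed both 12-week arrays, with wide overlap between. TrkB and TrkC showed a difference of −0.04 (exact p = 0.48, adjusted p = 0.48), which does not show that they change alike.

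The FGF ligand and receptor differences are close to the threshold. With each array left out in turn, the ligand difference passed in 2 of 10 fits and the receptor difference in 1 of 10. The ligand difference was −0.17 (exact adjusted p = 0.20) without 12 weeks replicate 2 and −0.41 (exact adjusted p = 0.0022) without 12 weeks replicate 1, while the receptor difference ranged from −0.27 to −0.20. With ages permuted within each replicate number both had an adjusted p of 0.068 in the exact test. Marker transcripts of some cell types fell over the same ages, beside 0.673% of all genes that fell in the linear test. Of 11 immature neuron markers 7 fell in the linear test, with array means of the list from 10.27 down to 9.33. Of 10 oligodendrocyte precursor markers 5 fell (9.25 to 8.74), and of 10 myelinating oligodendrocyte markers 7 fell (10.52 to 9.93). All of these measured markers were above the dim reference. Of 12 astrocyte and radial glia-like markers 1 fell (array means between 10.89 and 11.05). Of 10 mature granule cell markers 1 rose and 1 fell, and of 9 pyramidal cell markers 1 fell. No marker passed in the endothelial, mural, microglial, choroid plexus, meningeal and interneuron lists. The part of these cell types in the FGF differences was not tested.

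**Figure D3:**
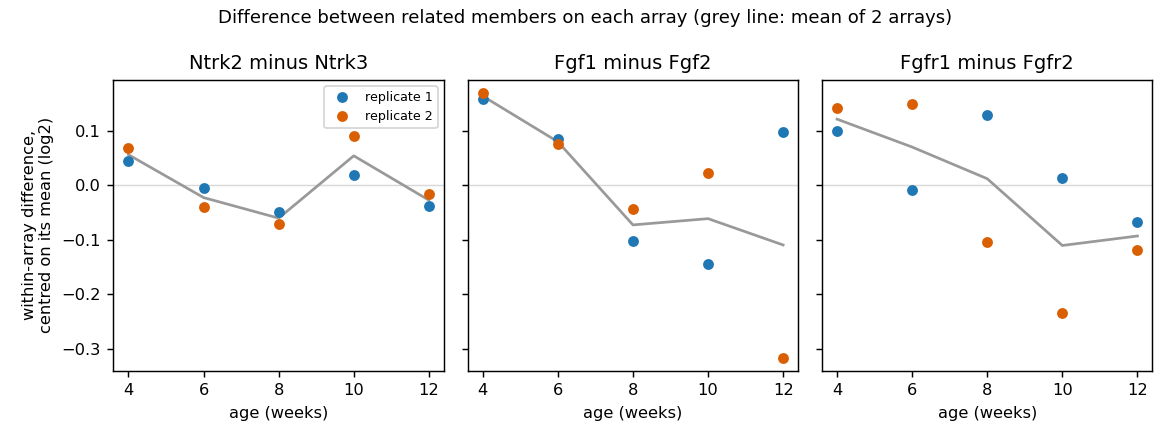
Within-array difference of log2 levels between related genes, centred on its mean over the 10 arrays, against age in weeks; points are arrays coloured by replicate number, and the grey line joins the means of 2 arrays. The Fgf1 minus Fgf2 means from 4 to 12 weeks are 0.16, 0.08, −0.07, −0.06 and −0.11, with the 12-week arrays at 0.10 and −0.32.

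The 10-week arrays were the lowest of all 10 for Bdnf and Fgfr1, a pattern chosen after the values were seen and one that 3.31% of all genes share. From 8 to 10 weeks the difference was −0.20 ± 0.08 for Bdnf (unadjusted p = 0.027) and −0.18 ± 0.07 for Fgfr1 (unadjusted p = 0.024). From 10 to 12 weeks it was 0.14 ± 0.08 for Bdnf and 0.14 ± 0.07 for Fgfr1. None of these steps passed in limma (lowest adjusted p = 0.88), and 0 of 19752 genes passed any single step. At an unadjusted p under 0.05 the step from 8 to 10 weeks held 2 of the 9 genes beside 4.79% of all genes, and the steps from 4 to 6, 6 to 8 and 10 to 12 weeks held 0, beside 4.13%, 6.25% and 5.59%. For Bdnf the 8-to-10-week difference was −0.14 (unadjusted p = 0.14) without 8 weeks replicate 2 and −0.15 (unadjusted p = 0.16) without 10 weeks replicate 2. For Fgfr1 it was −0.15 (unadjusted p = 0.088) without 8 weeks replicate 1 and −0.15 (unadjusted p = 0.12) without 10 weeks replicate 2. In all, 5 of the 9 genes had both arrays of some age at an end of their range, against 25.2% of all genes.

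Activity-induced genes, among which Bdnf is commonly counted, did not pass either. Of 20 such genes 0 rose and 0 fell in the linear test, with a median change of −0.03, and 2 had an unadjusted p under 0.05, a share near the 11.7% of all genes: Egr1 (−0.32 ± 0.15) and Nptx2 (−0.19 ± 0.09), an immediate early transcription factor and a secreted synaptic pentraxin. The largest change was that of Npas4, a neuronal activity-dependent transcription factor, at −0.33 ± 0.24 (adjusted p = 0.68), and it was 0.02 without 4 weeks replicate 1. Means of the list by age were 9.54, 9.48, 9.39, 9.39 and 9.52, a dip and return that a slope over age does not describe. In the test among any ages 0 of the 20 passed. Fosb, Arc, Egr1, Egr2, Nr4a1, Homer1 and Inhba had an unadjusted p under 0.05 in that test, a larger share of the list than the 8.46% of all genes. These genes were named after their values were seen. From 8 to 10 weeks, where the mean of the list was 9.39 at both ages, 10 of the 20 had lower values, beside 60.1% of all genes. The median was −0.01, where all genes had a median of −0.02.

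Neurotrophin ligands, receptors and adaptors outside the chosen genes numbered 20 measured of 23 listed, and 0 passed in any of the limma comparisons. Plcg1, the phospholipase C that Trk and FGF receptors bind, had the largest fitted change, −0.29 ± 0.07 (adjusted p = 0.065), from 10.12 at 4 weeks to 9.82 at 12 weeks. It passed in 4 alternative fits, with adjusted p = 0.029 without the dimmest 30% of genes, 0.048 with the replicate number as a block, 0.025 with array weights and 0.045 without 8 weeks replicate 1. Plat, the tissue plasminogen activator that takes part in cleaving proBDNF, had a change of 0.27 ± 0.07 (adjusted p = 0.087), with 9.25 and 9.38 at 4 weeks and 9.57 and 9.65 at 12 weeks. Gab1, a docking protein, had −0.26 ± 0.07 (adjusted p = 0.12), and Sorcs2, a proneurotrophin co-receptor, −0.26 ± 0.10 (adjusted p = 0.33). In all, 16 of the 113 genes of the 7 pathway lists (14.2%) had an unadjusted p under 0.05 in the linear test, beside 11.7% of all genes. Plat, Gab1, Sorcs2, Fgf10, Fgf11, Gpc4, Sulf2, Egr1, Nptx2, Slc2a1 and Ndrg1 were named after their values were seen, because they are among those 16.

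Of 20 other FGF family genes, of which 16 lay above the dim reference, 0 passed and the median change was 0.05. The largest fitted change was that of Fgf16, −0.25 ± 0.09 (adjusted p = 0.29). Fgf11, an intracellular FGF homologue, had −0.21 ± 0.05 (adjusted p = 0.11) and Fgf10 0.21 ± 0.08 (adjusted p = 0.34). Among 15 other receptors and cofactors the median was 0.01 and 0 passed, and the glypican Gpc4 (0.25 ± 0.07) and the heparan sulphate 6-O-endosulfatase Sulf2 (−0.20 ± 0.08) had an unadjusted p under 0.05. Kl encodes the FGF co-receptor klotho and is abundant in choroid plexus. Of 9 measured choroid plexus markers Kl alone had a change above 0, while 8 lay below (median of the 9 −0.35), and 0 passed. Among the receptors and cofactors Kl had the largest change, 0.31 ± 0.19 (adjusted p = 0.59). Its highest value, 9.54, was on 6 weeks replicate 1, the array of high Ttr, and without that array the change was 0.46 (adjusted p = 0.020).

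Of 14 genes listed as targets and feedback inhibitors of FGF and ERK signalling 0 passed, with a median of −0.05. Signalling itself was not measured. Spry2, a sprouty protein that inhibits receptor tyrosine kinase signalling, had −0.34 ± 0.08 (adjusted p = 0.067). Its arrays read 10.04 and 9.93 at 4 weeks, 10.08 and 9.93 at 6 weeks, 9.77 and 9.88 at 8 weeks, 9.70 and 9.72 at 10 weeks, and 9.79 and 9.65 at 12 weeks. All 4- and 6-week arrays lie above all later ones, as they do for Fgfr1. That split was noticed in the values rather than planned, and the share of all genes with it was not counted. Spry2 passed without the dimmest 30% of genes (adjusted p = 0.031) and with array weights (0.030).

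Among 9 other VEGF ligands and receptors 0 passed, with a median of −0.04. Flt1, the VEGF receptor of endothelial cells that binds VEGF-A most tightly, had the largest change, 0.40 ± 0.12 (adjusted p = 0.18), with 9.53 and 9.39 at 4 weeks and 9.87 and 10.14 at 12 weeks. It was 0.27 without 12 weeks replicate 2. With both 12-week arrays left out it was 0.21 when scaled to 8 weeks (adjusted p = 0.58). None of 10 measured endothelial markers passed the linear test. Their array means ran from 8.52 to 8.97, and Flt1 is itself on that list.

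Hypoxia-induced genes held the single call among the 7 pathway lists, 1 of 113 genes in the comparison of 12 with 4 weeks, where 0.516% of all genes passed, so the count is near the background. P4ha1, a collagen prolyl hydroxylase, was higher at 12 weeks by 0.52 ± 0.07 (SE, limma adjusted p = 0.018). It read 10.11 and 10.09 at 4 weeks, 10.34 and 10.24 at 6 weeks, 10.20 and 10.28 at 8 weeks, 10.23 and 10.32 at 10 weeks, and 10.59 and 10.66 at 12 weeks, so that the 12-week arrays are apart from all others. Leaving out 4 weeks replicate 1 or 2 ended the call (adjusted p = 0.16 and 0.19), as did leaving out 12 weeks replicate 1 or 2 (adjusted p = 0.12 and 0.16). Its linear change, 0.41 ± 0.09, did not pass (adjusted p = 0.064), and it passed in 6 of 19 alternatives: quantile normalization (adjusted p = 0.024), without the dimmest 30% of genes (0.030), array weights (0.028), without both arrays that stand apart (0.042), without 8 weeks replicate 1 (0.049) and without 10 weeks replicate 1 (0.048). Without the 12-week arrays it was 0.19 when scaled to 8 weeks (adjusted p = 0.50). Slc2a1, the glucose transporter of the blood-brain barrier, had a linear change of 0.30 ± 0.09 (adjusted p = 0.18), and Ndrg1 one of 0.27 ± 0.09 (adjusted p = 0.24). Of the 15 genes 9 had changes above 0, where 48.8% of all genes had changes below 0. Their median was 0.03, and the linear test called 0.

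**Figure D4:**
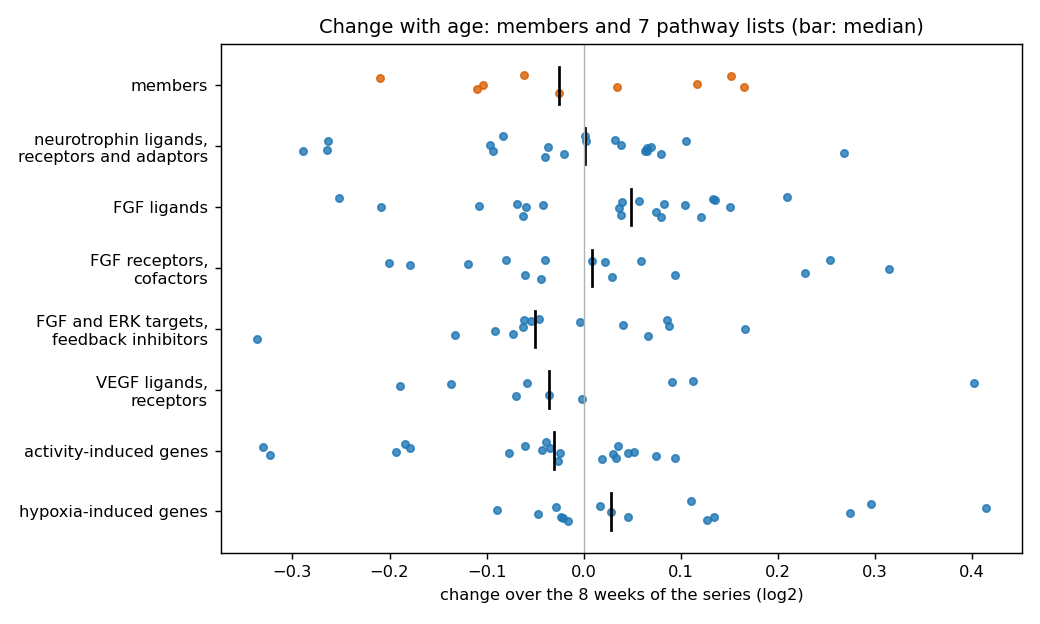
Fitted linear change over the 8 weeks (log2, horizontal axis) of the 9 signalling genes, named members in the plot, and of the genes of 7 pathway lists; each dot is a gene and the black bar is the median of its row. Medians lie between −0.05 and 0.05, and the largest changes are those of P4ha1 (0.41) and Flt1 (0.40).

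Profiles most like those of the 3 genes of smallest linear p were sought among 14392 genes above the dim reference, as a description over the same 10 arrays. For Fgfr1 these were Rela (Pearson r = 0.96), Smarca4 (0.95) and Dhcr7 (0.95). For Fgf1 they were Cenpx (0.93), Nhs (0.90) and Spi1 (0.90), and for Fgf2 they were Rwdd4a (0.89), Pdzd3 (0.89) and Pcmt1 (0.88). None of these 9 similar genes passed the linear test (adjusted p from 0.092 to 0.80).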

How the data were processed

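Total RNA of mouse dentate gyri was measured on Affymetrix whole-transcript arrays, 2 per age, labelled with a terminal labelling kit per the labels' protocols. The authors deposited processed values, taken here as log2 because they run continuously over a log-like range with like quartiles on every array; the log base and the software are not given in the sources used here. The genome build is mm10 per the submitters' processing notes. Gene names come from the platform annotation, checked by gene number against RefSeq (GRCm38.p6), from which coordinates and sequences are taken. Of 25254 probe sets 21496 named a single gene; where several named a gene, that of highest mean was used, with no filter on dim genes.

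limma 3.58.1 in R 4.3.3 fitted age in weeks as a number, then age as a factor, on all arrays. Pairs of related genes were tested in Python 3.11.15 by exact permutation; the planned pair of Bdnf and Ntf3 could not be formed. The fits were tested on simulated data. The genes, lists and tests were chosen with earlier results of these data known. All 9 measured genes are named, and in each pathway list the genes called over all genes or, failing any, that of largest change; further genes, named as such in the text, were chosen after their values were seen. Nothing in the labels ties the arrays of an age to separate animals or pools; p-values therefore measure spread between arrays, which may be technical, and precision is limited by their number. The 19 alternatives were 2 normalizations, a dim filter, means over probe sets, the replicate number as a block, array weights, log2 of age and arrays left out.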

Additional observations from a re-analysis of the deposited data

How the results depend on the processing

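No member passed in any of the 19 alternatives of the linear test, and none passed the other limma comparisons in any alternative run. Counts over all genes moved more. Against 162 genes in the linear test, 33 in the test among any ages, 102 between 12 and 4 weeks and 0 over the successive steps, leaving out the dimmest 30% of genes gave 337, 69, 210 and 6, and array weights gave 417, 69, 261 and 7. The linear test gave 51 without the 12-week arrays. Steps gave 3 calls with quantile normalization and 2 without both arrays that stand apart. Calls split into 29 higher and 133 lower in the linear test and 25 and 77 between 12 and 4 weeks; with quantile normalization the splits were 65 and 131, and 54 and 87. With each array left out in turn the ranges were 35 to 279, 5 to 50, 13 to 188 and 0 to 1079; the lowest linear counts were 35 and 54 without 4 weeks replicate 1 and 2, and the 1079 step calls came without 8 weeks replicate 2.

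The replicate number as a block gave 161, 13, 66 and 0 calls. It left the FGF pair differences at −0.28 and −0.24 with an exact adjusted p of 0.068 for both, and changed no call of a member. Deviations of same-numbered arrays correlated between −0.34 and 0.16, with 3 of 10 pairs of ages over 0.1, so the number was not taken as a pairing. The Fgf1 minus Fgf2 difference lost its call with quantile normalization (−0.27, exact adjusted p = 0.053), and both FGF differences lost it without both arrays that stand apart (−0.27 and −0.26, exact adjusted p = 0.091). Leaving out single arrays gave −0.41 to −0.17 for the ligands and −0.27 to −0.20 for the receptors. The Fgfr2 change turned to −0.050, scaled to 8 weeks, without the 12-week arrays. It ranged from −0.026 (without 12 weeks replicate 2) to 0.071 with single arrays left out, being −0.0023 without 4 weeks replicate 2. Npas4 ranged from −0.52 to 0.016. The causes were not tested.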
